A study of Mus musculus with 31 samples.

Results

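The levels of 10 genes listed as markers of the thalamus or of the central nucleus of the amygdala, neighbours of the basolateral amygdala (BLA), were followed in BLA tissue of 31 mice. They are Tcf7l2, Slc17a6, Tnnt1, Lef1, Prkcd, Prkch, Zic1, Calcrl, Ezr and Sytl4. They were chosen by name, with earlier results of these data known, and matched to the Ensembl identifiers of the count tables. All 10 were found among 48709 genes, and all 10 passed the filter on low counts that left 17428. The questions were which mice carried high levels of these genes, which of the genes moved together, and whether genotype, transgenic line or sex bore on them. RNA was sequenced by QuantSeq, which reads the 3′ end of each polyadenylated transcript. Levels are CPM, read counts scaled to a common library size with TMM normalization, and as each transcript is read at its 3′ end they need no division by gene length.

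There were 16 WT mice, which the sample labels call controls, and 15 CYFIP1 OE mice, which carry a bacterial artificial chromosome with human CYFIP1. All were C57BL/6N, and the paper describes the WT animals as littermates. The animals belonged to lines labelled 1 and 3, bred from transgenic founders chosen for high expression of the transgene. Line 1 had 8 WT mice (4 females, 4 males) and 7 CYFIP1 OE mice (4 females, 3 males), and line 3 had 8 WT mice (4 females, 4 males) and 8 CYFIP1 OE mice (4 females, 4 males). WT mice were 58 to 61 days old and CYFIP1 OE mice 58 to 77 days. All 4 mice aged 77 days were CYFIP1 OE animals of line 1. Sample names carry a prefix whose meaning the labels do not give. In line 1, 7 of the 8 WT mice shared a prefix that no CYFIP1 OE mouse had. Most CYFIP1 OE mice of line 1 had prefixes without a WT mouse. For most mice of line 1, genotype therefore cannot be told apart from prefix. The tissue was a punch of each BLA, located by the white matter around it, with the left and right sides of a mouse pooled.

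The BLA lies beside the central nucleus, which holds inhibitory output neurons, and medial to it are the internal capsule and the thalamus. The central nucleus has a well known population of inhibitory neurons marked by Prkcd, the gene of protein kinase C delta, which are studied for their part in conditioned fear. The same gene is strong in thalamic relay neurons. In the adult brain Tcf7l2, a transcription factor of the Wnt pathway, and Slc17a6, the vesicular glutamate transporter of subcortical excitatory neurons, also mark the thalamus. In bulk tissue, more cells of a type and more RNA per cell cannot be told apart.

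Totals ranged from 5286925 to 8685521 counts per mouse, with a median of 7387798. By standardized connectivity, the correlation of a mouse with all others as a Z-score, CYFIP1 OE mouse 1 was lowest at -4.76, and it was kept. The summed level of 6 markers of BLA principal neurons ran from 54.0 to 1443.6 CPM with a median of 387.0 CPM, and 1 of the 6, Rspo2, was at 0 in 1 mouse. The summed level of 9 striatal markers ran from 253.2 to 4678.8 CPM. The BLA sum ran from 54.0 to 851.2 CPM in WT and from 71.7 to 1443.6 CPM in CYFIP1 OE mice, so the wide spread was found in both genotypes. The count tables hold mouse genes only, so the human transgene was not measured. Mouse Cyfip1 had a mean of 33.5 ± 4.48 CPM over 16 WT mice and 33.0 ± 3.66 CPM over 15 CYFIP1 OE mice (SD), and says nothing about the transgene.

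Of the 10 genes, Ezr was the highest, with a mean of 40.7 ± 13.7 CPM over 16 WT mice and 34.5 ± 10.4 CPM over 15 CYFIP1 OE mice (SD). Tcf7l2, Zic1 and Prkcd followed, with means between 17.3 and 22.5 CPM in both genotypes, and their SDs were from 10.7 to 19.9 CPM. Slc17a6 and Prkch had means between 7.85 and 12.8 CPM. Tnnt1, Lef1, Calcrl and Sytl4 were low, with means of 4.11 CPM or less in both genotypes. Sytl4 rested on a median of 5 reads per mouse, Calcrl on 14, Lef1 on 16 and Tnnt1 on 19, against 263 for Ezr. Sytl4 had under 10 reads in 22 mice and none in 3, and Calcrl had under 10 reads in 10 mice. For these 4 genes part of the spread between mice is counting error.

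The spread between mice was wide for most of the 10. The biological coefficient of variation, the spread left by the model after counting error, was 0.901 for Tnnt1, higher than that of 94.1% of the genes tested. It was 0.692 for Slc17a6 and 0.682 for Prkcd, higher than that of 85.6% and 85.1% of genes. Ezr had 0.28, lower than the median of 0.342 over all genes. Tcf7l2 had 0.431, Zic1 0.491 and Prkch 0.506, which were higher than that of 63% to 71.1% of genes. The highest mouse lay 7.77 times over the median for Tnnt1, 6.8 times for Prkcd, 4.4 times for Tcf7l2 and 4.27 times for Zic1, but 2.1 times for Ezr and 2.22 times for Prkch.

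**Figure D1:**
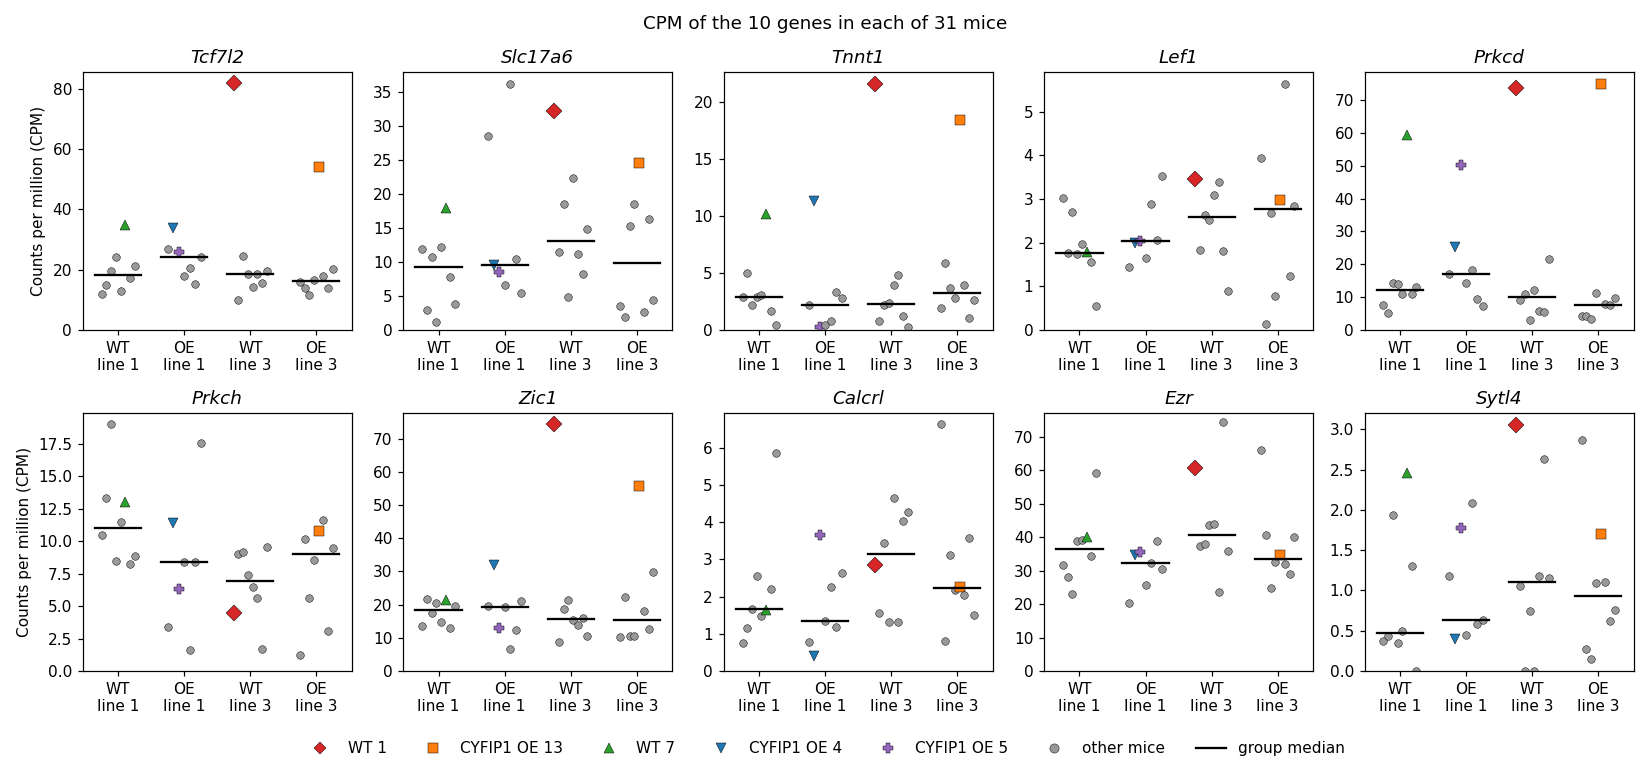
Level of each of the 10 genes in CPM (vertical axis, linear from 0) in each mouse, by genotype and line (horizontal axis; OE is CYFIP1 OE). Each point is 1 mouse, bars are group medians, and 5 mice are marked by colour and shape: WT mouse 1 and CYFIP1 OE mouse 13 lie far above their groups for Tcf7l2, Tnnt1, Prkcd and Zic1.

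Tcf7l2 (ENSMUSG00000024985, GRCm38 chr19:55741820-55933654, plus strand) ranged from 9.81 CPM to 82.0 CPM with a median of 18.7 CPM. WT mouse 1 had 82.0 CPM (808 reads) and CYFIP1 OE mouse 13 had 54.2 CPM (383 reads). WT mouse 7 followed at 35 CPM and CYFIP1 OE mouse 4 at 33.9 CPM. The remaining 27 mice lay between 9.81 and 26.8 CPM, so the top 2 stood clear of the others, 1 in each genotype.

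Zic1 (ENSMUSG00000032368, chr9:91358058-91365810, minus strand) encodes a zinc finger transcription factor that is kept in the adult in parts of the thalamus and in the meninges, among other places. It ranged from 6.75 CPM to 74.4 CPM with a median of 17.4 CPM. The same 2 mice were highest, WT mouse 1 at 74.4 CPM (733 reads) and CYFIP1 OE mouse 13 at 55.7 CPM (393 reads). CYFIP1 OE mouse 4 came next at 32.1 CPM and CYFIP1 OE mouse 3 at 29.7 CPM, whereas WT mouse 7 was at 21.4 CPM.

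Prkcd (ENSMUSG00000021948, chr14:30595354-30626210, minus strand) ranged from 2.96 CPM to 74.9 CPM with a median of 11 CPM. CYFIP1 OE mouse 13 had 74.9 CPM (529 reads), WT mouse 1 had 73.6 CPM (725 reads), WT mouse 7 had 59.4 CPM (435 reads) and CYFIP1 OE mouse 5 had 50.2 CPM (396 reads). CYFIP1 OE mouse 4 followed at 25.3 CPM, and the other 26 mice were at 21.7 CPM or less. These 4 highest mice were all males, 2 of each line and 2 of each genotype.

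Tcf7l2, Prkcd and Zic1 shared their 2 highest mice, as Tnnt1 did on fewer reads, and the sequence before the start of the 3 better counted genes is shown for that reason. RefSeq promoter windows on GRCm38.p6, 250 bases before to 50 bases after each annotated start, were found for 9 of the 10 genes, with Prkch missing. The 250 bases upstream of the most 5′ start are given 5′ to 3′ on the strand of the gene, with CG dinucleotides in capitals. They lie at chr19:55741560-55741809 for Tcf7l2, chr14:30626209-30626458 for Prkcd and chr9:91365769-91366018 for Zic1.
Tcf7l2: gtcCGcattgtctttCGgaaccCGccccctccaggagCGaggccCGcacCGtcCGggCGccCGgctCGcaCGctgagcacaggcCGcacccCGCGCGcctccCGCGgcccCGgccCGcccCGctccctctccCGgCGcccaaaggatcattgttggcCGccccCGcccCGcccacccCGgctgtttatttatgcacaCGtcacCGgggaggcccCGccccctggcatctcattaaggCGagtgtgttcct
Prkcd: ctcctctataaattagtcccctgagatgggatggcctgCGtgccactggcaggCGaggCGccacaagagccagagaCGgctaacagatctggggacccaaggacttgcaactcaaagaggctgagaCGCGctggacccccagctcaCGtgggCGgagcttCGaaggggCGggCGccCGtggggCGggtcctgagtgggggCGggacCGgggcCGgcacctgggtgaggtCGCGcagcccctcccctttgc
Zic1: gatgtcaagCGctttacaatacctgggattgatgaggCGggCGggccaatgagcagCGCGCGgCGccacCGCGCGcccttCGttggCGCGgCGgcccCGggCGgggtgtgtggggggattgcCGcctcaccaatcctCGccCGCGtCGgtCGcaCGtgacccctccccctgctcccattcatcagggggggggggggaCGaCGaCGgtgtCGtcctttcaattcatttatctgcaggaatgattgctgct
These 3 windows were rich in CG. Over their full 300 bases they held 34 CG dinucleotides for Tcf7l2, 26 for Prkcd and 31 for Zic1, against a median of 7 over 32851 windows. Tcf7l2 and Prkcd each had a further annotated start, whose windows held 7 and 2. Which start was in use was not tested. The window of Ezr, for which CYFIP1 OE mouse 13 was near the median, held 38, and that of Tnnt1 held 6. The letters CTTTGAA and CTTTGAT, a core sequence that Tcf7l2 and Lef1 proteins are known to bind, were searched on both strands. They occurred in 0 of the 15 windows of the 9 genes and in 8.65% of all windows.

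Tnnt1 (ENSMUSG00000064179, chr7:4504570-4516382, minus strand) encodes the slow skeletal muscle form of troponin T, and its RNA in the brain is known from thalamic relay neurons. It ranged from 0.253 CPM to 21.6 CPM with a median of 2.78 CPM. WT mouse 1 had 21.6 CPM (213 reads), CYFIP1 OE mouse 13 had 18.4 CPM (130 reads), CYFIP1 OE mouse 4 had 11.3 CPM (85 reads) and WT mouse 7 had 10.2 CPM (75 reads). The next mouse, CYFIP1 OE mouse 10, was at 5.92 CPM. CYFIP1 OE mouse 5, also high for Prkcd, was the lowest of the 31 for Tnnt1, at 0.253 CPM (2 reads).

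Slc17a6 (ENSMUSG00000030500, chr7:51622006-51671119, plus strand) ranged from 1.16 CPM to 36.2 CPM with a median of 10.8 CPM. Here CYFIP1 OE mouse 7 was highest at 36.2 CPM, followed by WT mouse 1 at 32.2 CPM, CYFIP1 OE mouse 2 at 28.5 CPM and CYFIP1 OE mouse 13 at 24.6 CPM. These values stepped down without a clear gap. CYFIP1 OE mouse 7 was the lowest of all mice for Zic1, at 6.75 CPM, and CYFIP1 OE mouse 2 had 2.22 CPM of Tnnt1, under its median.

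Prkch (ENSMUSG00000021108, chr12:73584796-73778185, plus strand), the gene of protein kinase C eta, did not single out the same mice. It ranged from 1.25 CPM to 19.0 CPM with a median of 8.56 CPM, and WT mouse 1 was 6th from the bottom at 4.47 CPM. The lowest were CYFIP1 OE mouse 1 at 1.25 CPM, CYFIP1 OE mouse 7 at 1.61 CPM and WT mouse 2 at 1.72 CPM. WT mouse 7 at 13 CPM, CYFIP1 OE mouse 4 at 11.4 CPM and CYFIP1 OE mouse 13 at 10.8 CPM were above the median.

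Ezr (ENSMUSG00000052397, chr17:6738041-6782784, minus strand) encodes ezrin, which ties the actin cytoskeleton to the membrane of microvilli and fine processes. It ranged from 20.4 CPM to 74.4 CPM with a median of 35.5 CPM. WT mouse 2 had 74.4 CPM, CYFIP1 OE mouse 1 had 66.1 CPM, WT mouse 1 had 60.6 CPM and WT mouse 9 had 59.1 CPM. CYFIP1 OE mouse 13 was near the median at 34.7 CPM. The 3 highest carry the same prefix in their sample names, which 4 mice of line 3 share and whose meaning the labels do not give.

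The remaining 3 genes were low. Lef1 (ENSMUSG00000027985, chr3:131110471-131224356, plus strand), a Wnt pathway transcription factor like Tcf7l2, ranged from 0.135 CPM to 5.64 CPM with a median of 2.03 CPM. Calcrl (ENSMUSG00000059588, chr2:84330626-84425411, minus strand), part of the receptors for the peptides CGRP and adrenomedullin, ranged from 0.398 CPM to 6.63 CPM with a median of 2.18 CPM. Sytl4 (ENSMUSG00000031255, chrX:133936385-133981812, minus strand), which encodes a protein of secretory vesicle docking, ranged from 0 CPM to 3.05 CPM with a median of 0.761 CPM. WT mouse 1 was the highest of all for Sytl4 with 30 reads, and it was among the 4 highest for Lef1 with 34 reads.

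A value was said to stand out when its log2 CPM lay more than 3 scaled median absolute deviations (MADs) from the median of the 31 mice. Among the 310 values of the 10 genes, 9 stood out above (2.9%) and 5 below (1.61%), against 0.438% above and 1.54% below over all genes and mice. The values above thus made up a larger share than in all genes, and those below a like share. The 9 high values came from 4 mice. WT mouse 1 gave 5 of them, in Tcf7l2, Tnnt1, Prkcd, Zic1 and Ezr, where 1.04% of all genes stood out above in that mouse. CYFIP1 OE mouse 13 gave 2, in Prkcd and Zic1, where 0.0749% of all genes did. WT mouse 2 and CYFIP1 OE mouse 1 gave 1 each, in Ezr. The 5 low values were Prkch in WT mouse 2, CYFIP1 OE mouse 1 and CYFIP1 OE mouse 7, Lef1 in CYFIP1 OE mouse 10, and Ezr in CYFIP1 OE mouse 2. In the other 24 mice none of the 10 genes stood out.

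Both leading mice were males of line 3. WT mouse 1 was 60 days old with 8671967 counts, and CYFIP1 OE mouse 13 was 64 days old with 6991859 counts. WT mouse 1 also stood apart over all genes, with the lowest connectivity Z-score after CYFIP1 OE mouse 1, at -1.17, and 3.77% of its genes past 3 MADs. For CYFIP1 OE mouse 13 the Z-score was 0.87 and the share 0.455%. With sex, line and genotype removed first, 3 of the 10 genes stood out above in WT mouse 1 and 2 in CYFIP1 OE mouse 13.

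The mice were then compared for 11 other genes listed as thalamic. Their summed level was 389.6 CPM in WT mouse 1 and 315.6 CPM in CYFIP1 OE mouse 13, the highest of the 31, against a median of 172.8 CPM and a lowest value of 148.9 CPM. WT mouse 7 came next at 236.6 CPM, followed by CYFIP1 OE mouse 7 at 235.3 CPM. Rora, the gene of a nuclear receptor strong in the thalamus, was at 125.9 CPM in WT mouse 1 and 106.2 CPM in CYFIP1 OE mouse 13, against a median of 59.5 CPM. Amotl1 was at 118.7 CPM in WT mouse 1 and 82.4 CPM in CYFIP1 OE mouse 13, against a median of 52.8 CPM.

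Shox2, Rgs16 and Calb2, further genes of the list, were picked after their values had been seen. Shox2, a transcription factor gene of thalamic relay neurons, had no reads in 17 mice and was at 11.8 CPM in CYFIP1 OE mouse 13, 6.69 CPM in WT mouse 7, 6.6 CPM in WT mouse 1 and 5.3 CPM in CYFIP1 OE mouse 4. Those 4 mice are also the 4 highest for Tnnt1. Rgs16 was at 16.6 CPM in WT mouse 1 and 9.21 CPM in CYFIP1 OE mouse 13, against a median of 2.25 CPM. Not all of the list followed, since WT mouse 7 was 28th of 31 for Calb2 at 2.18 CPM and CYFIP1 OE mouse 13 was 19th at 4.82 CPM.

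10 other genes listed for the central amygdala did not single out the same mice. Their sum was 691.7 CPM in WT mouse 1, which ranked 29th, 1805.9 CPM in CYFIP1 OE mouse 13, 2063.4 CPM in WT mouse 7 and 1574.2 CPM in CYFIP1 OE mouse 5, against a median of 1822.8 CPM. Penk and Meis2, which the striatum also expresses strongly, make up most of that sum. CYFIP1 OE mouse 5, with Prkcd at 50.2 CPM, had the highest Nts (42.7 CPM, median 12.2 CPM) and Cartpt (27.2 CPM, median 3.88 CPM), and was second for Crh (29.3 CPM) and Tac2 (24.7 CPM). These 4 peptide genes were also picked after their values had been seen. Of the rest of the list, Pdyn was also highest in CYFIP1 OE mouse 5, at 128.4 CPM (median 86.6 CPM). Dlk1 at 27.7 CPM (median 9.36 CPM) and Sst at 112.5 CPM (median 93.8 CPM) were above their medians there. Penk, Meis2 and Isl1 were under their medians in CYFIP1 OE mouse 5. Penk was at 907.6 CPM (median 1193.3 CPM) and Meis2 at 263.4 CPM (median 362.4 CPM). That mouse had no reads of Shox2.

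**Figure D2:**
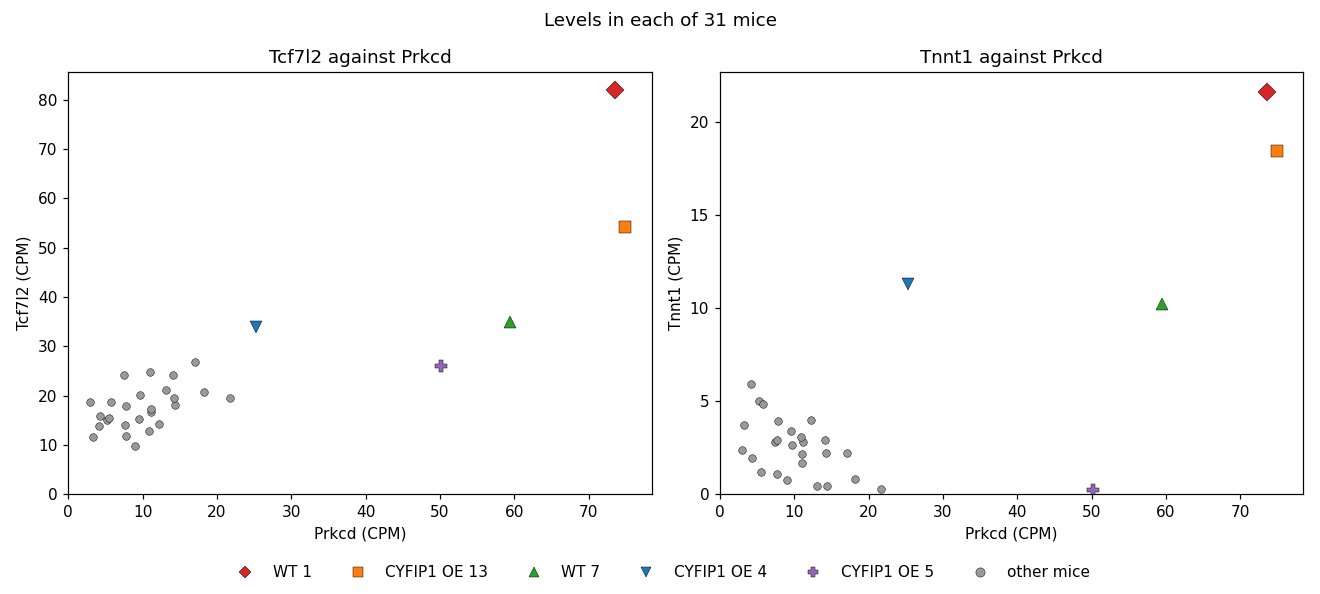
Levels of Tcf7l2 (left, vertical axis) and Tnnt1 (right, vertical axis) against Prkcd (horizontal axes), all in CPM on linear axes from 0, with 1 point per mouse. WT mouse 1, CYFIP1 OE mouse 13 and WT mouse 7 were high for Prkcd and Tnnt1, while CYFIP1 OE mouse 5 had 50.2 CPM of Prkcd and 0.253 CPM of Tnnt1.

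Markers of other cells moved with these mice in part. The summed level of 6 oligodendrocyte genes was 8385.6 CPM in WT mouse 1, the highest of all, 5308.9 CPM in WT mouse 7, the second highest, 4844.1 CPM in CYFIP1 OE mouse 13 and 4062.1 CPM in CYFIP1 OE mouse 4, against a median of 2822.2 CPM. The 9 choroid plexus and ependyma genes summed to 6268.1 CPM in WT mouse 1 against a median of 332.7 CPM, but to 585.8 CPM in CYFIP1 OE mouse 13, 78.6 CPM in WT mouse 7 and 108.9 CPM in CYFIP1 OE mouse 4. The 2 other mice with high Ezr, WT mouse 2 and CYFIP1 OE mouse 1, had choroid plexus and ependyma sums of 8471.2 and 4773.7 CPM. The part of these markers in the levels of the 10 genes was not tested.

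Across all mice, which of the 10 genes moved together was described by the rank correlation (Spearman rho) of their log2 CPM over the 31 mice, after sex, line and genotype had been removed. The mice share their library preparation, and 2 of them carry extreme values of several genes. Among the 45 pairs, 3 had a rho of at least 0.5 (6.67%), against 1.5% of all pairs of genes, and 1 had a rho of -0.5 or less, against 1.33% of all pairs. The median over the 45 pairs was 0.10, and 34 pairs lay between -0.3 and 0.3. The 10 genes therefore did not form a single block.

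The strongest pair was Tcf7l2 with Prkcd, at rho 0.69 and Pearson r 0.78. By rho with Prkcd, Tcf7l2 ranked 13th of the other 17427 genes. Without the 2 mice farthest from the median of Tcf7l2, r was 0.63, and without WT mouse 1 and CYFIP1 OE mouse 13 rho was 0.53. Among WT mice rho was 0.49 and among CYFIP1 OE mice 0.76, and within lines it was 0.57 in line 1 and 0.71 in line 3.

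Tcf7l2 also went with Zic1, at rho 0.61 and r 0.79, with an r of 0.58 without the 2 farthest mice. Its rho was 0.67 among WT and 0.68 among CYFIP1 OE mice, and 0.60 in line 1 and 0.77 in line 3. Zic1 in turn went with Tnnt1, at rho 0.54 and r 0.67, with 0.57 for r and 0.44 for rho without the 2 farthest mice. Its rho was also 0.44 without WT mouse 1 and CYFIP1 OE mouse 13, and 2 of the 45 pairs then reached 0.5. Prkcd and Zic1, which both went with Tcf7l2, had a rho of 0.25 with each other, and r fell from 0.51 to 0.14 without the 2 farthest mice. Their relation thus rested on those mice.

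Slc17a6 had its closest member in Prkcd, at rho 0.49 and r 0.50, with the same r of 0.50 without the 2 farthest mice. Within lines its rho was 0.28 in line 1 and 0.61 in line 3. With Tcf7l2 its rho was 0.20, and with Zic1 it was -0.20. Tcf7l2 and Tnnt1 had an r of 0.52, a rho of 0.19 and, without the 2 farthest mice, an r of 0.24. Over all mice the r of this pair thus rested on extreme mice. Its rho was 0.51 with the name prefix removed in place of line and genotype, 0.66 in line 3 alone and 0.16 in line 1 alone.

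Prkch went with Zic1 at rho 0.40, but r was 0.33 and 0.13 without the 2 farthest mice, and rho was -0.04 for WT mice alone and 0.68 for CYFIP1 OE mice alone. Tnnt1 and Calcrl were the lowest pair at rho -0.51 and r -0.47, with an r of -0.50 without the 2 farthest mice. Both rest on few reads in many mice. Lef1, Ezr and Sytl4 had no rho over 0.33 with any of the other 9. Calcrl and Ezr had a rho of 0.26.

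**Figure D3:**
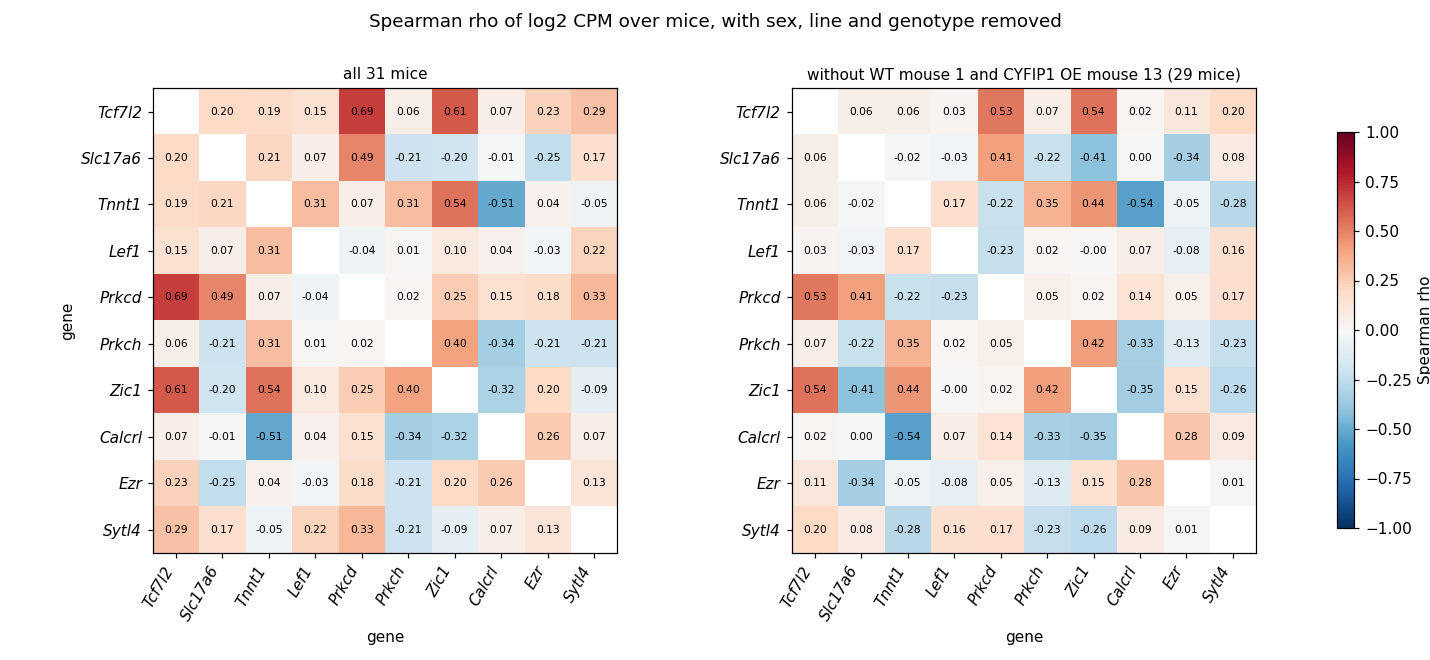
Spearman rho for each pair of the 10 genes (both axes), from log2 CPM with sex, line and genotype removed, over all 31 mice (left) and without WT mouse 1 and CYFIP1 OE mouse 13 (right). Colour and printed values give rho, which for Tcf7l2 with Prkcd was 0.69 on the left and 0.53 on the right.

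The genes most like each member among all genes tested were listed by rho over the same 31 mice. Tnnt1 had Rora as its closest gene, at rho 0.74, followed by Abcd4 at 0.74 and Rnf40 at 0.70. Prkcd had Tjap1 at 0.80, Amotl1 at 0.79 and Gaa, the gene of lysosomal acid glucosidase, at 0.74. Rora and Amotl1 are both on the list of thalamic genes. For Tcf7l2 they were Fnbp1 at 0.78, Hus1 at 0.76 and Arrdc3 at 0.76, and for Slc17a6 Rasa3 at 0.75, Resp18 at 0.71 and AI413582 at 0.70.

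Genes close to Zic1 included Slc44a1, a choline transporter gene, at rho 0.86, and Kcnj10, a potassium channel gene of glia, at 0.86. Without WT mouse 1 and CYFIP1 OE mouse 13 these were 0.82 and 0.79. Prkch had Acy1 at 0.83, Slc32a1, the vesicular transporter of inhibitory neurons, at 0.80, and Slc35d3 at 0.79. Ezr had Fuca1 at 0.80, Bsg, the gene of basigin, at 0.76, and Ttf2 at 0.74. Calcrl had Hopx at 0.72, Zfp37 at 0.72 and Prelp at 0.65.

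The 2 genes with the weakest company were Sytl4, with Reps1 at 0.63, Gm43423 at 0.61 and Mageh1 at 0.61, and Lef1, with Gm20644 at 0.71, Gm5844 at 0.60 and Fam219b at 0.59. Prkch had 806 other genes with a rho of at least 0.5, Zic1 had 531 and Tcf7l2 had 377, against 59 for Sytl4 and 29 for Lef1. Prkcd had 247, Slc17a6 333, Ezr 301, Tnnt1 106 and Calcrl 103.

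Each of the 10 genes was then set against 14 lists of marker genes, each summarised per mouse by the mean of its standardized log2 CPM with sex, line and genotype removed. Zic1 had a rho of 0.81 with 6 oligodendrocyte genes, 0.67 with 5 astrocyte genes and -0.65 with 6 genes of BLA principal neurons. Without WT mouse 1 and CYFIP1 OE mouse 13 the first was 0.77, and it reached 0.84 for WT mice alone and 0.91 for CYFIP1 OE mice alone. Mbp, a major myelin gene, was at 2743.5 CPM in WT mouse 1 against a median of 868.1 CPM.

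Tcf7l2 showed a like pattern, with 0.65 for astrocyte, 0.64 for oligodendrocyte and -0.48 for BLA principal neuron genes. Its rho with the thalamic list was 0.39, and 0.03 without WT mouse 1 and CYFIP1 OE mouse 13. Tcf7l2 is also known from cells of the oligodendrocyte lineage and from astrocytes. With the 5 oligodendrocyte precursor genes its rho was 0.46, and 0.17 without the 2 mice.

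Slc17a6 had its highest rho with the thalamic list, 0.53, which was 0.63 without WT mouse 1 and CYFIP1 OE mouse 13, 0.62 among WT and 0.68 among CYFIP1 OE mice. Its lowest was with 6 endothelial genes, at -0.39. Prkcd had 0.53 with the central amygdala list and 0.49 with the thalamic list. Without WT mouse 1 and CYFIP1 OE mouse 13 these were 0.71 and 0.27. In WT mice they were 0.17 and 0.70, and in CYFIP1 OE mice 0.78 and 0.20, so which list Prkcd followed differed between the genotypes, and this difference was not tested.

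Prkch followed 8 striatal genes at rho 0.74 and 3 genes of GABAergic neurons at 0.62, and went against BLA principal neuron genes at -0.59 and choroid plexus and ependyma genes at -0.49. The striatal value was 0.81 for WT mice alone and 0.85 for CYFIP1 OE mice alone. The 3 lowest mice for Prkch, CYFIP1 OE mice 1 and 7 and WT mouse 2, had striatal sums of 267.0, 584.9 and 253.2 CPM, against a median of 2243.2 CPM. Its rho with the thalamic list was -0.33, the opposite sign to that of Slc17a6 and Prkcd.

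Calcrl and Ezr had rho values of 0.53 and 0.49 with the choroid plexus and ependyma genes, and Ezr had 0.47 with 5 meningeal fibroblast genes. The value of Ezr with the choroid plexus and ependyma genes was 0.76 among WT and 0.00 among CYFIP1 OE mice, and the difference was not tested. Tnnt1 had 0.44 with oligodendrocyte genes, and without WT mouse 1 and CYFIP1 OE mouse 13 it was 0.33, while with the thalamic list it was 0.25 and then -0.06. Lef1 and Sytl4 had no rho beyond 0.30 with any list. For the 3 medial habenula genes no rho passed 0.33 in size, and for the 5 microglia genes the largest was 0.41, with Prkch. The hypothalamus list, of which 1 gene of 9 passed the filter, had its highest rho with Prkch, at 0.57. By these lists Slc17a6 and Sytl4 had their highest rho with thalamic genes, at 0.53 and 0.25, and Prkcd with central amygdala genes. The other 7 had theirs with a list for another tissue or cell type. The value of Sytl4 was 0.03 without WT mouse 1 and CYFIP1 OE mouse 13, and 0.39 among WT and -0.02 among CYFIP1 OE mice.

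**Figure D4:**
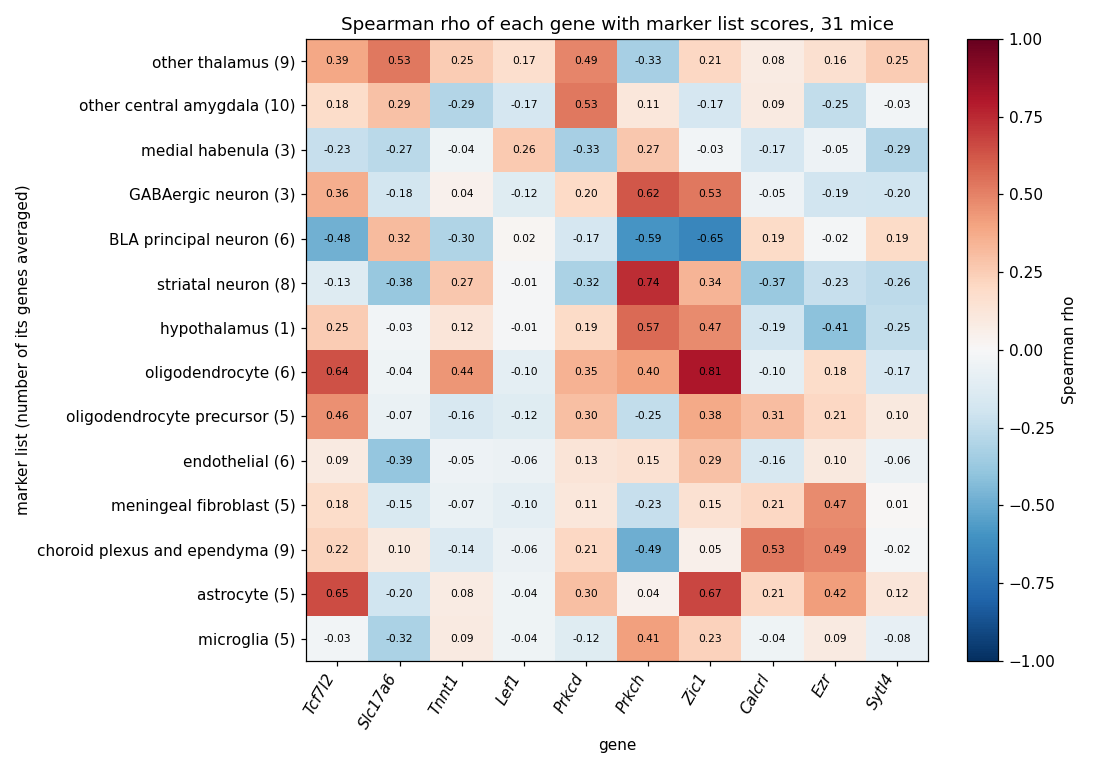
Spearman rho of each of the 10 genes (horizontal axis) with the score of each marker list (vertical axis, number of genes averaged in brackets) over 31 mice, with sex, line and genotype removed. Colour and printed values give rho, which reached 0.81 for Zic1 with oligodendrocyte genes and 0.74 for Prkch with striatal neuron genes.

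Whether CYFIP1 overexpression bore on these genes was tested with edgeR's quasi-likelihood test across all 17428 genes, with sex and line as further terms. None of the 10 passed an adjusted p of 0.05, as was the case for 0.0% of all genes. At an unadjusted p under 0.05 there were 0 of the 10, against 4.3% of all genes, and DESeq2 also gave 0 at either threshold. Log2 fold changes, CYFIP1 OE over WT, ran from -0.25 for Ezr to 0.19 for Prkcd, with 5 above 0 and 5 below and a median of 0.01, against -0.00532 over all genes. For Ezr it was -0.25 ± 0.14 (SE, unadjusted p = 0.0929, adjusted p = 0.999 by edgeR). Without CYFIP1 OE mouse 1 it was -0.34 ± 0.13 (SE, unadjusted p = 0.018 by edgeR), and within name prefixes that hold both genotypes -0.05 ± 0.17 (SE, unadjusted p = 0.786 by edgeR). For Prkcd it was 0.19 ± 0.37 (SE), and its sign turned when age was added (-0.52) or the mice aged 77 days were left out (-0.31), and also in line 3 alone (-0.10). The ranges of the 2 genotypes overlapped for all 10 genes.

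Between the lines, 0 of the 10 genes passed an adjusted p of 0.05 (0.0% of all genes) and 0 an unadjusted p under 0.05 (3.31% of all genes) by edgeR, and DESeq2 gave 0 as well. No name prefix was found in both lines, so a line difference cannot be told apart from prefix. The log2 difference, line 3 over line 1, was above 0 for 8 of the 10, with a median of 0.25 against 0.00706 over all genes. It was 0.51 ± 0.32 (SE) for Calcrl, 0.27 ± 0.14 (SE) for Ezr and -0.47 ± 0.27 (SE) for Prkch, with unadjusted p-values of 0.119, 0.0674 and 0.0934. The direction of the 10 depended on the 2 leading mice, both of line 3. They were the 2 highest for Tcf7l2, Tnnt1, Prkcd and Zic1, so leaving them out lowers line 3 for these genes by choice. Without both mice 4 of the 10 were above 0 with a median of -0.11. Prkcd then moved from -0.40 ± 0.37 to -1.07 ± 0.30 (SE, unadjusted p = 0.00107, adjusted p = 0.996 by edgeR). These 2 mice were the highest of all for Prkcd (74.9 and 73.6 CPM), while the high mice of line 1 (59.4 and 50.2 CPM) stayed in. A fall in line 3 was thus built into that choice, and its p-value is no test of line. With both leading mice kept, the line difference of Prkcd was 0.30 with age added. It was 0.09 without the 4 mice aged 77 days, all of line 1.

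Whether the genotype difference was different in the 2 lines was tested by an interaction term. None of the 10 passed an adjusted p of 0.05 (0.0% of all genes) and none an unadjusted p under 0.05 (8.1% of all genes) by edgeR, and DESeq2 gave 0 and 0. The largest was that of Slc17a6, at -1.34 ± 0.71 on the log2 scale (SE, unadjusted p = 0.0675, adjusted p = 0.652 by edgeR). In line 1 its mean was 8.56 ± 5.69 CPM for 8 WT and 15.0 ± 12.1 CPM for 7 CYFIP1 OE mice (SD). In line 3 it was 15.4 ± 8.72 CPM for 8 WT and 10.9 ± 8.79 CPM for 8 CYFIP1 OE mice (SD). The 4 ranges overlapped. Genotype and name prefix largely coincide in line 1, so this term cannot be told apart from prefix there. In the same term all 8 striatal genes were above 0, with a median of 1.5 and each at an unadjusted p under 0.05. All 6 BLA principal neuron genes were below 0, with a median of -1.23 and 1 at that threshold. None of either list passed an adjusted p of 0.05. Without WT mouse 1 and CYFIP1 OE mouse 13, 4 of the 8 striatal genes reached the unadjusted threshold (6.57% of all genes), with a median of 1.35. The BLA genes then had a median of -1.14, with 1 at that threshold. The part of both lists in the value of Slc17a6 was not tested.

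Between the sexes none of the 10 passed the threshold over all genes. At an adjusted p of 0.05 there were 0 of 10 (0.0631% of all genes), and at an unadjusted p under 0.05 there were 2 of 10, Prkcd and Tcf7l2, both lower in females (4.62% of all genes) by edgeR. All 10 log2 differences, female over male, were below 0, with a median of -0.34 against -0.0158 over all genes, and that of Ezr rounded to 0. Without WT mouse 1 and CYFIP1 OE mouse 13, both males, 6 of the 10 were below 0 with a median of -0.11. In line 1 alone 5 were below 0, and in line 3 alone all 10.

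Prkcd ranged from 4.3 CPM to 74.9 CPM in 15 males, with a median of 14.1 CPM, and from 2.96 CPM to 25.3 CPM in 16 females, with a median of 8.7 CPM. The ranges overlapped, and the 4 mice over 50 CPM were males. The log2 difference was -1.49 ± 0.38 (SE, unadjusted p = 0.000411, adjusted p = 0.478 by edgeR). It stayed below 0 in all 14 alternatives, from -1.93 to -0.81. Each alternative kept some of the 4 males over 50 CPM, so the constant sign does not show a difference apart from these mice. Without WT mouse 1 and CYFIP1 OE mouse 13 it was -0.81 ± 0.30 (SE, unadjusted p = 0.0105, adjusted p = 0.937 by edgeR). Among WT mice it was -1.75 ± 0.44 and among CYFIP1 OE mice -1.24 ± 0.55, and -1.04 ± 0.40 in line 1 and -1.93 ± 0.56 in line 3 (SE).

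In WT mice Prkcd was at 26.7 ± 25.1 CPM in males (SD, n = 8) and 7.94 ± 3.73 CPM in females (SD, n = 8), with ranges of 9.02 to 73.6 and 2.96 to 13.1 CPM. In CYFIP1 OE mice it was at 24.5 ± 27.2 CPM in males (SD, n = 7) and 11.7 ± 7.41 CPM in females (SD, n = 8). With the name prefix as a term in place of line the log2 difference was -1.67 ± 0.40 (SE). With 5 surrogate variables, estimated from all genes, it was -0.98 ± 0.28 (SE).

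Tcf7l2 differed by -0.54 ± 0.23 on the log2 scale (SE, unadjusted p = 0.0242, adjusted p = 0.97 by edgeR), and by -0.13 without WT mouse 1 and CYFIP1 OE mouse 13. Its medians were 19.5 CPM in males and 17.6 CPM in females, with overlapping ranges. The other 8 genes had unadjusted p-values from 0.127 to 0.976, with log2 differences of -0.77 or nearer to 0.

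Other thalamic genes did not pass the threshold between the sexes. Of 9 tested, 7 had a log2 difference below 0, 3 of them at an unadjusted p under 0.05 (4.62% of all genes), with a median of -0.28. These were 6 and 0 (5.07% of all genes) without WT mouse 1 and CYFIP1 OE mouse 13, with a median of -0.11. Of 10 central amygdala genes 6 were below 0, 3 at that unadjusted threshold, with a median of -0.19, and without both mice 7 were below 0, 3 at the threshold, with a median of -0.23. The summed thalamic level ran from 156.5 to 389.6 CPM in males, with a median of 195.8 CPM, and from 148.9 to 235.3 CPM in females, with a median of 164.6 CPM. The 4 mice over 50 CPM of Prkcd included the 3 highest for the thalamic sum, and the part of such markers in the sex difference of Prkcd was not tested. The oligodendrocyte sum had a median of 2457.6 CPM in males and 2950.0 CPM in females.

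**Figure D5:**
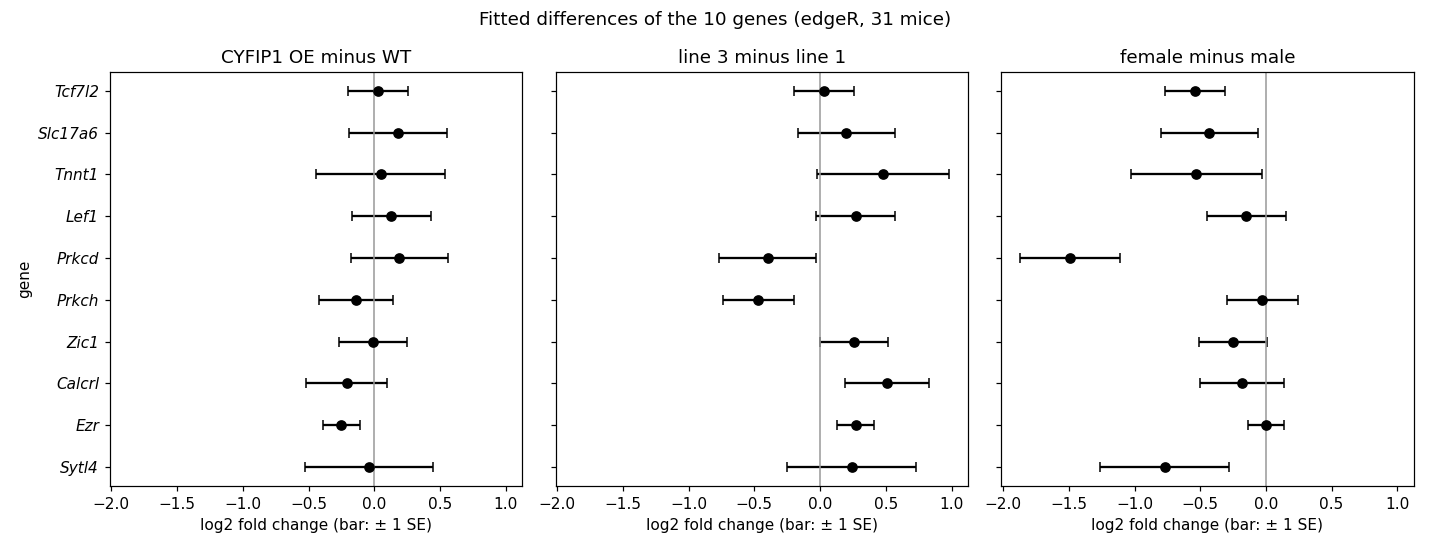
Fitted log2 differences (horizontal axes) of the 10 genes (vertical axis) for genotype, line and sex, from edgeR over 31 mice, where points are estimates and bars are 1 SE to each side. No gene passed an adjusted p of 0.05, and Prkcd in the sex comparison, at -1.49, lies farthest from 0.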

How the data were processed

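RNA from BLA punches of 31 mice was sequenced with the QuantSeq 3′ kit. The authors aligned reads to GRCm38 with STAR and deposited estimated counts per gene from Salmon, 1 table per mouse. These expected counts were rounded to whole numbers. The filter kept genes that reached 10 reads in 7 mice, 20% of the animals. Gene symbols and coordinates came from GENCODE on GRCm38. Groups followed the sample labels. Genotype, line and sex were tested in 1 model with edgeR 4.0.16 (TMM, quasi-likelihood, Benjamini-Hochberg adjustment over all genes) in R 4.3.3, and the p-values measure the spread between mice. Mice that share a name prefix were taken as independent, so the p-values do not measure the spread between prefixes. Alternatives used DESeq2 1.42.0 and 5 surrogate variables from sva 3.50.0. The sequencing principal components of the study's own model were not used here. Log2 CPM had a prior count of 2. Correlations are descriptions without p-values, after linear removal of sex, line and genotype. The model was tested on simulated data.

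The 10 genes, the marker lists and the tests were chosen with earlier results of these data known. The genes named were the 10, the 3 with the highest rho for each, and of each list those with an adjusted p under 0.05 and up to 2 with the highest mean CPM. Others are named as picked after their values were seen, or where a result turned on them. Some genes that this rule names are not reported here.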

Additional observations from a re-analysis of the deposited data

Results flagged for a closer look

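Within each genotype and line (7 or 8 mice), the highest and lowest mouse of each gene was compared with the others by Dixon's ratio. Of 40 groups 15 held a mouse far from the others, where chance gives about 1 in 20, or 2. By the same measure 10.2% of such groups over all genes held one, against 37.5% for the 10 genes, 9 of which varied more than the median gene, and 8 of the 15 were WT mouse 1 or CYFIP1 OE mouse 13. The groups of different genes share the same mice.

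Prkcd had such a mouse in all 4 groups. It was at 50.2 CPM in CYFIP1 OE mouse 5 (next 25.3 CPM), 74.9 CPM in CYFIP1 OE mouse 13 (next 11.2 CPM), 59.4 CPM in WT mouse 7 (next 14.2 CPM) and 73.6 CPM in WT mouse 1 (next 21.7 CPM). Tnnt1 also had one in all 4 groups, at 11.3 CPM in CYFIP1 OE mouse 4 (next 3.38 CPM), 18.4 CPM in CYFIP1 OE mouse 13 (next 5.92 CPM), 10.2 CPM in WT mouse 7 (next 4.98 CPM) and 21.6 CPM in WT mouse 1 (next 4.86 CPM).

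Tcf7l2 was far out at 54.2 CPM in CYFIP1 OE mouse 13 (next 20.2 CPM) and 82.0 CPM in WT mouse 1 (next 24.7 CPM). Zic1 was far out in the same mice, at 55.7 CPM (next 29.7 CPM) and 74.4 CPM (next 21.5 CPM). WT mouse 9 was far out for Calcrl at 5.87 CPM (next 2.55 CPM) and for Ezr at 59.1 CPM (next 39.9 CPM), and CYFIP1 OE mouse 1 for Ezr at 66.1 CPM (next 40.5 CPM).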

How the results depend on the processing

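In the 40 alternatives to the tests of genotype, line, sex and their interaction, none of the 10 genes passed an adjusted p of 0.05, and the smallest was 0.0706, for Prkcd between the sexes without a filter on low counts. The genotype difference of Prkcd turned to -0.52 with age added, -0.31 without the mice aged 77 days, -0.10 in line 3 alone and -0.22 among name prefixes that hold both genotypes. Its line difference turned to 0.30 with age added and 0.09 without the mice aged 77 days. The sex difference of Prkcd ran from -1.93 to -0.81 and that of Tcf7l2 from -0.86 to -0.13. The genotype difference of Ezr ran from -0.34 to -0.05, and the interaction of Slc17a6 from -1.36 to -1.05. Pairs with a rho of at least 0.5 numbered 3, and 5 by Pearson r, in CYFIP1 OE mice alone and in line 3 alone, and 2 without WT mouse 1 and CYFIP1 OE mouse 13. Values that stood out numbered 14, and 23 at 2.5 scaled MADs. They numbered 13 with another normalization (RLE) in place of TMM, and 10 with sex, line and genotype removed first. Leaving out WT mouse 1 together with CYFIP1 OE mouse 13, and the sex comparison within lines, within genotypes and with the name prefix as a term, were chosen after seeing the data. Depth limits Sytl4, Calcrl, Lef1 and Tnnt1, with medians of 5 to 19 reads per mouse.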

Other observations

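Genes that ran opposite to the 10 were also found, each being the lowest by rho among all genes tested and named after these values were seen. Prkcd had a rho of -0.85 with Purb, Zic1 had -0.86 with Gda, Ezr had -0.82 with Lcor, and Prkch had -0.81 with Plxna1. Without WT mouse 1 and CYFIP1 OE mouse 13 these were -0.79, -0.79, -0.80 and -0.80. Slc17a6 had its lowest rho, -0.72, with Pecam1, a gene of endothelial cells.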
